A study of Mus musculus with 39 samples.

Results

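Krt23, Hes7, Ston1, Amn, Lamb3, Treh, Osbpl3 and Pnliprp1 are 8 genes that were selected on the measured values: each stood far higher in the livers of dosed wild-type mice than in their vehicle controls. They are 8 of the 11591 genes that had a single symbol and a probe measured on all 39 arrays. A gene is represented by the probe that names it alone and, where 2 probes do, by the one with the higher mean over the arrays; only Ston1 has 2. The 9 probes concerned have a value on every array. Because the wild-type responses chose the genes, every wild-type difference below, and every difference between genotypes, is a description without a test. The null arrays were not used for the choice, and there the genes were tested. The set has been called non-lipid, which the known roles of 2 members go against: Osbpl3 encodes a member of a lipid-transfer family and Pnliprp1 a relative of pancreatic lipase.

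The study measured total RNA of whole liver from adult male mice of the 129SV background on Applied Biosystems Mouse Genome Survey arrays. Wild-type mice and mice lacking PPARa (PPARa-null, the state of all 5 null groups, controls included) were gavaged daily for 7 days. Perfluorooctanoic acid (PFOA), a perfluorinated surfactant given as its ammonium salt, was dosed at 0, 1 or 3 mg/kg in deionised water, and the synthetic PPARa agonist Wy14,643 at 0 or 50 mg/kg in 0.5% methylcellulose. The groups are therefore water, PFOA 1 mg/kg, PFOA 3 mg/kg, methylcellulose and Wy14,643 in each genotype. The design names 4 animals per group, and 9 groups have 4 arrays here while wild type on methylcellulose has 3. Values are log2 signals, on which a difference of 1 is a doubling. They were quantile-matched by the authors, so every array has the median 9.14.

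PPARa is a nuclear receptor of the liver that is switched on by fatty acids and by drugs such as Wy14,643. With its partner RXR it binds paired copies of a short DNA motif and turns on genes for peroxisomal and mitochondrial fatty acid oxidation. Mice without it lose most of that response to peroxisome proliferators, so null livers are the usual control for effects that run through the receptor. The 8 genes are better known outside this programme. Krt23 is an acidic keratin, a building block of intermediate filaments. Lamb3 is a chain of laminin-332, which anchors epithelia to the basement membrane. Hes7 is a transcriptional repressor of the Notch pathway, best known for the embryonic segmentation clock. Ston1 is a stonin, related to adaptors of clathrin-mediated endocytosis. Amn (amnionless) carries cubilin, the receptor for vitamin B12 bound to intrinsic factor, to the surface of gut and kidney cells. Treh is trehalase, a brush border enzyme that splits the sugar trehalose into glucose.

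Upstream sequences are shown for Krt23, the gene with the widest PFOA difference, for Amn and Treh, the members with the largest null differences at PFOA 3 mg/kg, and for Lamb3 because its window holds the one direct-repeat match. They are read 5′ to 3′ on the gene's strand from RefSeq promoters of GRCm38.p6, which held 9 start sites for the 8 genes. Capitals mark the letters of a motif. The Krt23 window, chr11:99493121-99493370 on the minus strand, is the 250 bases before the start; no motif searched was found in it.
Krt23: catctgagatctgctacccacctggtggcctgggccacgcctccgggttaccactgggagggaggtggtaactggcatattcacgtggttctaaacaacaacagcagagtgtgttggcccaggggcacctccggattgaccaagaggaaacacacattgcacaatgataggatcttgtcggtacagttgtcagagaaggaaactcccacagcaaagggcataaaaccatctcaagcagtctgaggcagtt
The Amn window, chr12:111270846-111271095 on the plus strand, has CCAAT on its minus strand, 171 to 167 bases before the start.
Amn: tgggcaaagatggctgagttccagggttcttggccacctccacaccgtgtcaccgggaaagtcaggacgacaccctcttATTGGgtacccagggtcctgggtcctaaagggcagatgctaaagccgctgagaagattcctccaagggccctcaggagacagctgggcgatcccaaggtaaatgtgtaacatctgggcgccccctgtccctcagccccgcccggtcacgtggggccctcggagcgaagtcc
The Treh window, chr9:44672983-44673232 on the plus strand, has AGGTCA on its minus strand, 60 to 55 bases before the start.
Treh: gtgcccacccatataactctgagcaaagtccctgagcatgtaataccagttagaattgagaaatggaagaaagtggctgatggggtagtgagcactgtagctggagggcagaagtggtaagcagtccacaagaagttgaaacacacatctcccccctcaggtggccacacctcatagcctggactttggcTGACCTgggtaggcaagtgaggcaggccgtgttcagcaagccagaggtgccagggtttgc
The Lamb3 stretch, chr1:193302176-193302204 on the plus strand, lies before the downstream of 2 annotated starts and holds the repeat 59 to 47 bases before it, with 3 mismatches.
Lamb3: gatggagcAGGTCTGGGGCCAaggccgat

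4 motifs were searched on both strands of the 250 bases before each start: AGGTCA, the half-site that PPARa and RXR are known to bind; its direct repeat with 1 base between the copies, allowing 3 mismatches in the 12 fixed letters; TATAAA; and CCAAT. The first is part of the second, so those searches overlap. AGGTCA was in 1 of the 9 windows (Treh), against 14% of the 32851 promoter windows in the table. The direct repeat was in 1 of 9 (Lamb3), against 21.3%. TATAAA was in 0 of 9, against 12.4%, and CCAAT in 3 of 9 (Amn, Osbpl3 and Ston1), against 33.8%. A match here is only a run of letters in this window.

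Over the whole set, all 8 genes were higher than in the vehicle livers in each of the 3 dosed wild-type groups. The median log2 difference was 4.91 for PFOA 3 mg/kg, 2.33 for PFOA 1 mg/kg (3.19 without its replicate 3) and 4.53 for Wy14,643, beside −0.02, 0.01 and −0.03 over all 25295 probes tested. At an adjusted p under 0.05, 3.37% of all probes were called higher and 2.46% lower at PFOA 3 mg/kg in wild type, 0.241% higher and 0.0316% lower at 1 mg/kg, and 2.8% higher and 3.3% lower with Wy14,643; nothing is read from these shares for genes chosen on the same contrasts. The differences at PFOA 3 mg/kg spanned 3.22 (Treh) to 6.0 (Krt23). Nothing in a whole-liver sample tells a higher signal per cell from a larger number of cells that carry the RNA; these cannot be told apart here.

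**Figure D1:**
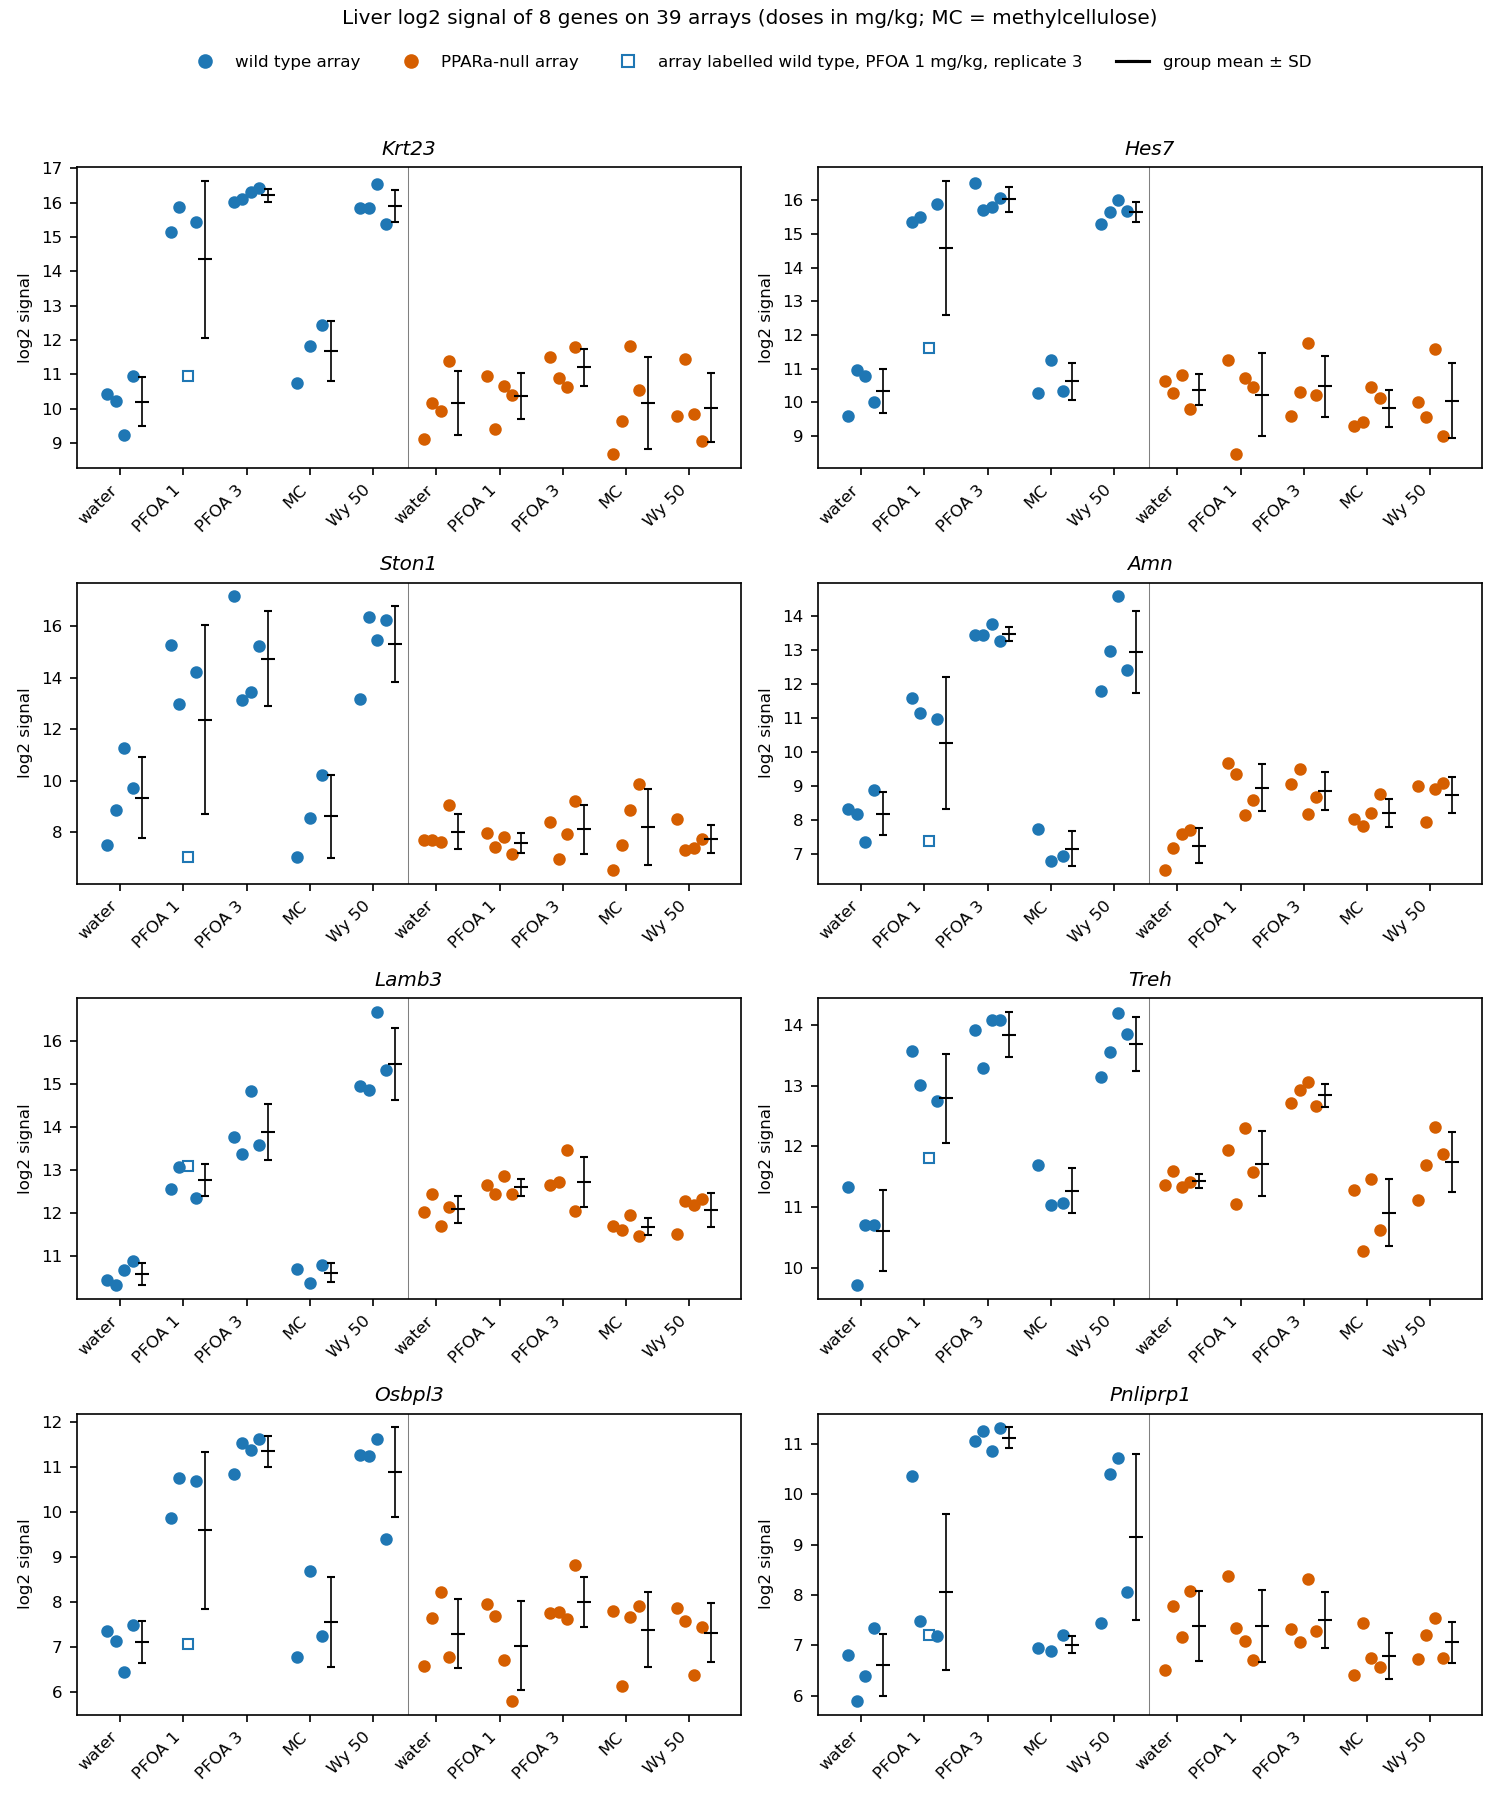
Each panel plots the log2 signal of 1 gene (vertical axis) on every array of the 10 groups (horizontal axis, doses in mg/kg, MC for methylcellulose), wild type in blue and PPARa-null in orange, with the group mean ± SD in black. The dosed wild-type arrays stand high in the panels, except at PFOA 1 mg/kg in Pnliprp1. The open square is replicate 3 of wild type at PFOA 1 mg/kg, which reads lowest of its group in Krt23, Hes7, Ston1, Amn, Treh and Osbpl3.

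Replicate 3 of wild type at PFOA 1 mg/kg has to be set out first. Its Cox6b2 signal was 9.06, where the other 3 arrays of its group read 16.4 to 17.0 and the 4 null arrays at that dose 6.96 to 10.1. Cox6b2, chosen with earlier results known, separated the genotypes on every other array: the lowest wild-type value was 13.3 and the highest null value 10.1. The PPARa targets, Ehhadh of the peroxisomal β-oxidation pathway and Cyp4a14, a fatty acid hydroxylase, read 15.9 and 11.6 on it, against 20.0 to 20.3 and 20.2 to 20.3 on the other 3. Over all tested probes its correlation was 0.95 to 0.958 with the null arrays at the same dose. With its own group it was 0.939 to 0.948, which does not overlap the null range at that dose. It was 0.946 to 0.953 with wild-type methylcellulose and as low as 0.931 with other null groups, so over all treatments the ranges of the genotypes overlap. It is called the array labelled replicate 3 throughout, and each member's PFOA 1 mg/kg difference from water is given with and without it; counts and shares over all probes include it. The Ppara probe does not settle the genotype, since its position relative to the deletion was not given. Its group means were 16.20 to 16.65 in wild type and 15.21 to 16.01 in null livers. Single arrays overlapped, with the lowest wild-type value 15.62 and the highest null value 16.29. The array labelled replicate 3 read 16.20, below the other 3 of its group (16.66 to 16.81). It lay above the null arrays at that dose (15.57 to 15.95).

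A second division among the arrays is named by no label: 73 probes separate 16 arrays from 23 by a gap of at least 1.5 on the log2 scale. It runs largely with the replicate numbers. The larger set holds 2, 10, 9 and 2 arrays of replicates 1 to 4, and the smaller 8, 0, 1 and 7. Both sets occur in 9 of the 10 groups, while all 4 wild-type Wy14,643 arrays are in the larger one. Probes of 583 receptor and hair keratin-associated genes that liver is not known to express spanned 6.84 to 11.9 (5th to 95th percentile). The wild-type vehicle means of all 8 genes lay below 11.9, and whether undosed liver expresses them was not tested. Osbpl3 and Pnliprp1 stayed below 11.9 on dosed arrays too, where their highest values were 11.61 and 11.32. Folds below are ratios of measured signals with no background taken off. None is given for Amn, Osbpl3 and Pnliprp1, whose wild-type vehicle means lay under the median of those probes (8.54).

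Krt23 showed the widest PFOA difference. On water it read 10.43, 10.22, 9.25 and 10.95 (replicates 1 to 4) in wild type, and at PFOA 3 mg/kg 16.01, 16.10, 16.31 and 16.41. At 1 mg/kg the arrays read 15.16, 15.87, 10.95 and 15.42. Both PFOA groups lay wholly above the water arrays, except that the array labelled replicate 3 was level with the highest of them. With methylcellulose Krt23 read 10.74, 11.84 and 12.45, and with Wy14,643 15.85, 15.84, 16.53 and 15.38, again without overlap. The 20 null arrays ran from 8.68 to 11.82, no higher than the wild-type vehicle arrays. The log2 difference from water was 6.0 ± 0.72 (SE) at 3 mg/kg, a 63.8-fold ratio, and 4.14 ± 0.72 at 1 mg/kg, or 5.27 without the array labelled replicate 3. The Wy14,643 difference was 4.22 ± 0.78, from a methylcellulose mean that was itself 1.47 above water. In the order of group means, wild-type PFOA 3 mg/kg (16.21 ± 0.18, SD) led Wy14,643 (15.90 ± 0.47) by less than their spread. The step from PFOA 1 mg/kg (14.35 ± 2.28) down to wild-type methylcellulose (11.68 ± 0.87) exceeded the larger SD. Of the steps below that, only the one from null PFOA 3 mg/kg (11.21 ± 0.54) to null PFOA 1 mg/kg (10.36 ± 0.67) did so.

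Lamb3 had a different profile, with high null livers and the widest response to Wy14,643 relative to PFOA. In wild type it read 10.45, 10.33, 10.69 and 10.89 on water, then 12.55, 13.06, 13.10 and 12.35 at PFOA 1 mg/kg and 13.76, 13.38, 14.82 and 13.57 at 3 mg/kg. The 3 sets do not overlap, and the array labelled replicate 3 (13.10) sat at the top of its group here, above the null arrays of that dose (12.45 to 12.85). On methylcellulose it read 10.70, 10.37 and 10.80, and with Wy14,643 14.95, 14.86, 16.67 and 15.33, all 4 above every PFOA array. The differences were 3.29 ± 0.32 (SE; 9.8-fold) at PFOA 3 mg/kg, 2.18 ± 0.32 at 1 mg/kg and 4.83 ± 0.34 (28.4-fold) with Wy14,643. Leaving out the array labelled replicate 3 moved the 1 mg/kg value only to 2.07. The agents were given at unlike doses in unlike vehicles, so these values stand side by side and the compounds are not compared.

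The null livers began higher for Lamb3. On water the null arrays read 12.03, 12.45, 11.71 and 12.15, above all 4 wild-type water arrays, and on methylcellulose 11.71, 11.60, 11.95 and 11.48, above all 3 wild-type ones. Null minus wild type was 1.5 ± 0.32 on water and 1.06 ± 0.34 on methylcellulose. Dosed null arrays read 12.66, 12.45, 12.85 and 12.45 at PFOA 1 mg/kg, 12.64, 12.73, 13.46 and 12.05 at 3 mg/kg, and 11.51, 12.27, 12.18 and 12.33 with Wy14,643. PFOA 1 mg/kg did not separate the genotypes: wild type averaged 12.77 ± 0.37 (SD) and null 12.60 ± 0.20. Lamb3 is the one member whose wild-type Wy14,643 mean (15.45 ± 0.84) exceeded wild-type PFOA 3 mg/kg (13.88 ± 0.65) by more than the larger SD. The steps to PFOA 1 mg/kg, from null PFOA 1 mg/kg to null water, from null Wy14,643 to null methylcellulose, and from there to wild-type methylcellulose also exceeded it.

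Hes7, the Notch-pathway repressor, stood high on 11 of the 12 dosed wild-type arrays. Wild-type water arrays read 9.58, 10.97, 10.79 and 10.01. PFOA gave 15.35, 15.51, 11.63 and 15.90 at 1 mg/kg and 16.53, 15.70, 15.80 and 16.08 at 3 mg/kg. No water array reached any of these 8. Methylcellulose arrays read 10.26, 11.26 and 10.34, and Wy14,643 arrays 15.30, 15.65, 16.01 and 15.67. The 20 null arrays ran from 8.45 to 11.76. The differences were 5.69 ± 0.66 (51.7-fold) at PFOA 3 mg/kg, 4.26 ± 0.66 at 1 mg/kg, 5.25 at 1 mg/kg without the array labelled replicate 3, and 5.04 ± 0.71 (32.8-fold) with Wy14,643. The 1 mg/kg difference was 6.10 within the smaller set of arrays, which has 1 array at that dose. Within the larger, which holds the array labelled replicate 3, it was 3.28. Wild-type PFOA 3 mg/kg (16.03 ± 0.37) lay just beyond its spread above Wy14,643 (15.66 ± 0.29), and the step from PFOA 1 mg/kg (14.59 ± 1.99) to wild-type methylcellulose (10.62 ± 0.55) was the other to exceed the larger SD. The remaining 6 groups, vehicles and nulls, followed one another within their spread.

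Ston1 was the most scattered member, and its probes do not move together. The probe with the higher mean read 7.52, 8.88, 11.26 and 9.73 on wild-type water, 15.27, 13.00, 7.04 and 14.22 at PFOA 1 mg/kg and 17.17, 13.15, 13.46 and 15.22 at 3 mg/kg. The array labelled replicate 3 lay below every water array, and the other 7 dosed arrays above all of them. It read 7.06, 8.56 and 10.25 on methylcellulose and 13.17, 16.38, 15.46 and 16.23 with Wy14,643, again apart. Null arrays ran from 6.55 to 9.89. The differences were 5.40 ± 1.14 (42.3-fold) at PFOA 3 mg/kg, 3.04 ± 1.14 at 1 mg/kg, 4.82 without the array labelled replicate 3 (2.08 without replicate 1), and 6.69 ± 1.23 (103-fold) with Wy14,643. The last ratio rests on a methylcellulose mean of 8.62 ± 1.60 (SD, 3 arrays), just above the silent-gene median of 8.54 under which no fold is given. The 3 mg/kg value was 7.58 within the smaller set of arrays and 3.23 within the larger. The 1 mg/kg value was 5.60 within the smaller set, which has 1 array at that dose. It was 1.70 within the larger, which holds the array labelled replicate 3. With the mean signal of the silent-gene probes as a covariate the 1 mg/kg value became 4.8. No step in the order of its 10 group means exceeded the larger SD.

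**Figure D2:**
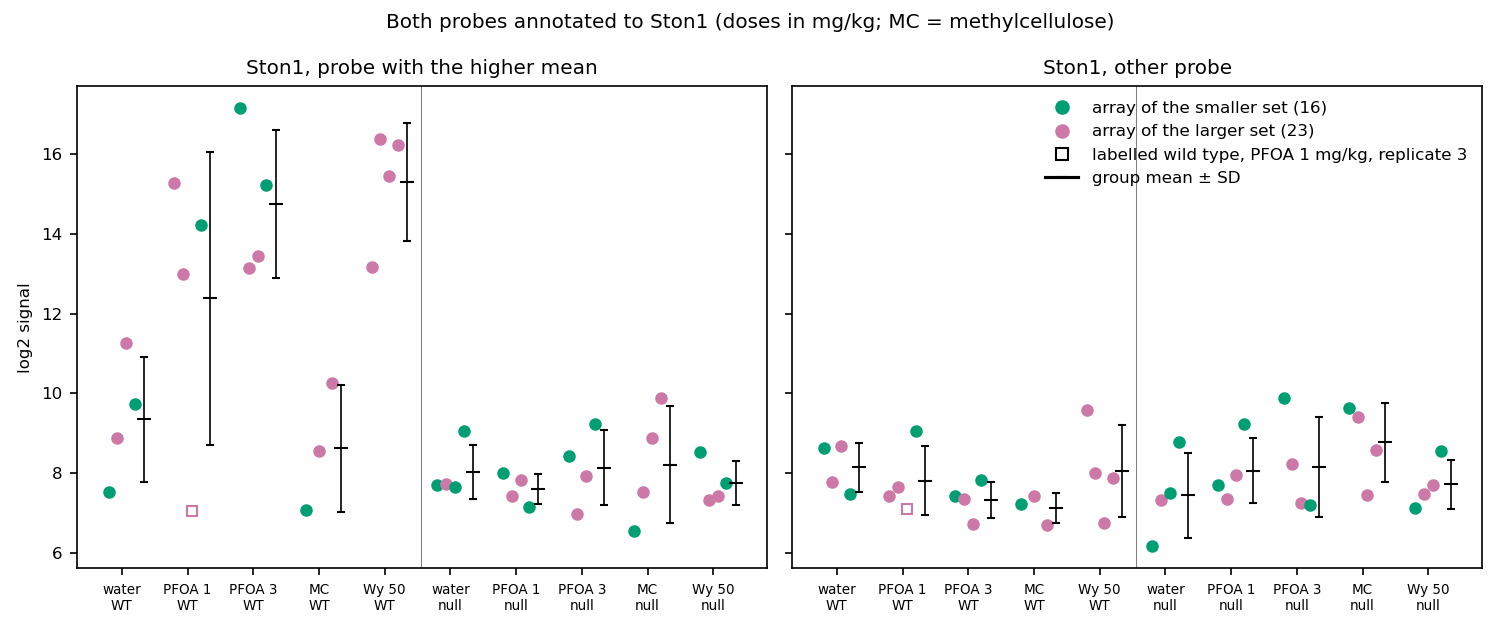
Both probes annotated to Ston1: the log2 signal (vertical axis) on every array of the 10 groups (horizontal axis, doses in mg/kg), coloured by the array set, with the group mean ± SD in black. The left probe is high on dosed wild-type arrays other than the open square, replicate 3 at PFOA 1 mg/kg. The right one stays between 6.15 and 9.88 in all groups.

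The other Ston1 probe gave −0.81 ± 0.60 at PFOA 3 mg/kg, −0.33 ± 0.60 at 1 mg/kg and 0.93 ± 0.65 with Wy14,643 in wild type. On wild-type water it read 8.63, 7.77, 8.68 and 7.47, and at PFOA 3 mg/kg 7.43, 7.34, 6.72 and 7.82, and the groups overlap. This probe stayed below the 95th percentile of the silent-gene probes (11.9) and its groups overlap, so no direction is read from it. Which transcript each probe reads was not tested.

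Amn, the cubilin partner, read 8.34, 8.18, 7.36 and 8.91 on wild-type water, 11.59, 11.16, 7.39 and 10.97 at PFOA 1 mg/kg, and 13.46, 13.44, 13.77 and 13.28 at 3 mg/kg. The doses separate from each other and, the array labelled replicate 3 aside, from water. Methylcellulose arrays read 7.76, 6.80 and 6.95, and Wy14,643 arrays 11.79, 12.97, 14.59 and 12.41. The differences were 5.29 ± 0.60 at PFOA 3 mg/kg, 2.08 ± 0.60 at 1 mg/kg, 3.05 without that array, and 5.77 ± 0.64 with Wy14,643. The gap between the PFOA doses in wild type was 3.21 ± 0.60, or 2.25 without that array. Among group means, wild-type Wy14,643 (12.94 ± 1.20) lay beyond the larger SD above PFOA 1 mg/kg (10.28 ± 1.94). The only other steps to do so were null Wy14,643 (8.75 ± 0.53) above null methylcellulose (8.22 ± 0.40), and wild-type water (8.20 ± 0.64) above null water (7.26 ± 0.53).

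Treh, the trehalase gene, had the narrowest wild-type differences of the set at PFOA 3 mg/kg and the clearest one in null livers. Wild-type water arrays read 11.33, 9.72, 10.71 and 10.70. PFOA arrays read 13.57, 13.01, 11.81 and 12.75 at 1 mg/kg and 13.92, 13.28, 14.08 and 14.07 at 3 mg/kg, all above water. Methylcellulose arrays read 11.69, 11.03 and 11.08, and Wy14,643 arrays 13.15, 13.55, 14.19 and 13.85. The differences were 3.22 ± 0.34 (9.34-fold) at PFOA 3 mg/kg, 2.17 ± 0.34 at 1 mg/kg, 2.50 without the array labelled replicate 3, and 2.42 ± 0.37 (5.33-fold) with Wy14,643. Wild-type PFOA 3 mg/kg (13.84 ± 0.38) and Wy14,643 (13.68 ± 0.44) did not differ beyond their spread. Null PFOA 3 mg/kg (12.84 ± 0.18) lay in the third place, level with wild-type PFOA 1 mg/kg (12.79 ± 0.73), and both stood apart from the groups above and below.

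Osbpl3, which encodes the oxysterol-binding protein relative ORP3, read 7.35, 7.13, 6.43 and 7.48 on wild-type water, 9.85, 10.74, 7.05 and 10.69 at PFOA 1 mg/kg, and 10.83, 11.52, 11.38 and 11.61 at 3 mg/kg. All dosed arrays but the one labelled replicate 3 were above water. Methylcellulose arrays read 6.76, 8.68 and 7.23, and Wy14,643 arrays 11.25, 11.24, 11.61 and 9.39. Null arrays ran from 5.80 to 8.82. The differences were 4.24 ± 0.62 at PFOA 3 mg/kg, 2.49 ± 0.62 at 1 mg/kg, 3.33 without that array, and 3.32 ± 0.67 with Wy14,643. No step between neighbouring group means exceeded the larger SD.

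Pnliprp1, the pancreatic lipase relative, answered unevenly. It read 6.80, 5.90, 6.39 and 7.35 on wild-type water and 11.07, 11.27, 10.86 and 11.32 at PFOA 3 mg/kg, a separation of all 4 arrays. At 1 mg/kg it read 10.37, 7.49, 7.21 and 7.18, so 3 of 4 arrays lay in or near the water range. Methylcellulose arrays read 6.96, 6.88 and 7.20, and Wy14,643 arrays 7.44, 10.40, 10.73 and 8.06. Null arrays ran from 6.40 to 8.39. The differences were 4.52 ± 0.59 at PFOA 3 mg/kg, 1.45 ± 0.59 at 1 mg/kg, 1.74 without the array labelled replicate 3 but 0.68 without replicate 1, and 2.14 ± 0.64 with Wy14,643. Within the array sets the 1 mg/kg value was 0.11 (smaller, 1 array) and 2.21 (larger). Only the step from wild-type PFOA 3 mg/kg (11.13 ± 0.21) to Wy14,643 (9.16 ± 1.65) exceeded the larger SD.

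**Figure D3:**
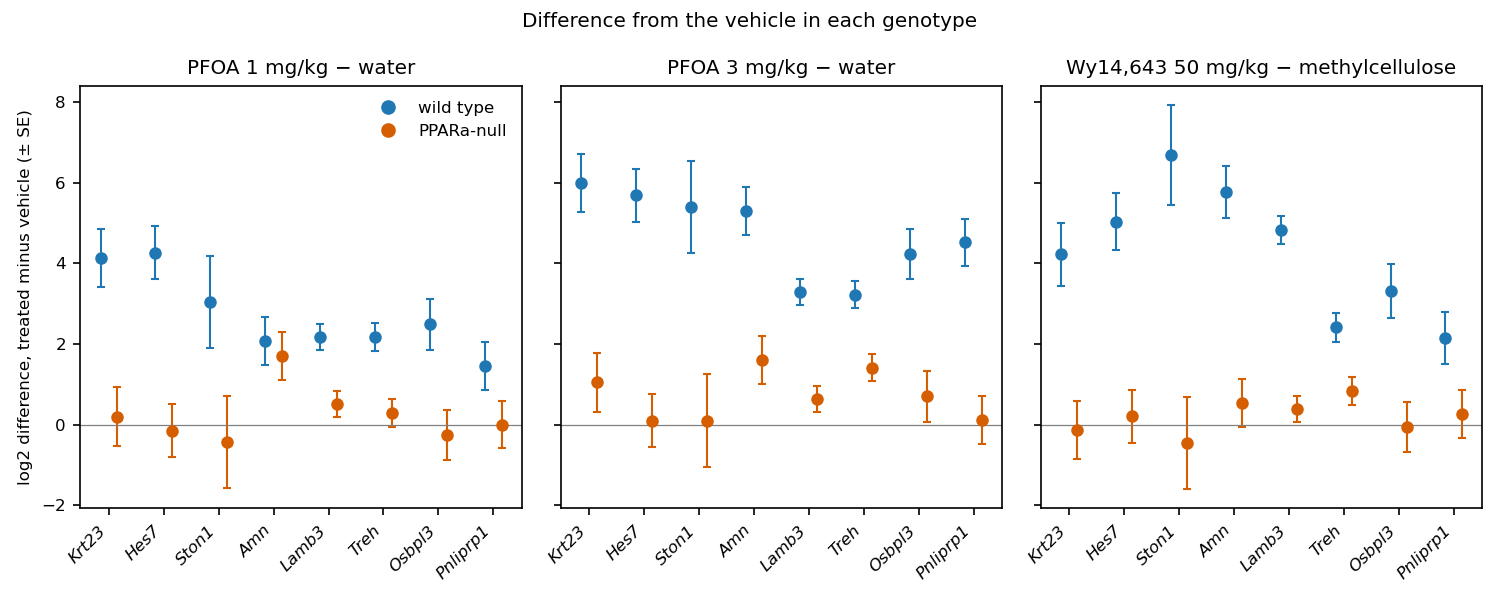
The log2 difference of treated minus vehicle livers ± SE (vertical axis) for each gene (horizontal axis) in wild type (blue) and PPARa-null (orange), for PFOA 1 mg/kg, PFOA 3 mg/kg and Wy14,643. Wild-type differences run from 1.45 to 6.69 and null differences from −0.45 to 1.70; the genes were chosen for the former.

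Leaving out the array labelled replicate 3, the remaining 3 wild-type PFOA 1 mg/kg arrays gave 92.2% of the 3 mg/kg log2 difference for Hes7, 89.2% for Ston1, 88.0% for Krt23, 78.5% for Osbpl3, 77.5% for Treh, 62.8% for Lamb3, 57.5% for Amn and 38.5% for Pnliprp1. In the order of group means, the step below wild-type PFOA 1 mg/kg then exceeded the larger SD in Ston1 (14.17 ± 1.14), Amn (11.24 ± 0.32) and Osbpl3 (10.43 ± 0.50) too, as it did in Krt23 (15.48 ± 0.36) and Hes7 (15.58 ± 0.28). Lamb3 and Treh exchanged places there with null PFOA 3 mg/kg, within their spread. Without that array, 5 of the 8 genes kept all 11 dosed wild-type arrays above all 27 others. The genes were chosen for rises on these arrays, and the share of all probes that separate likewise was not counted. For Krt23 the lowest dosed value was 15.16 and the highest other 12.45, for Hes7 15.30 and 11.76, and for Ston1 13.00 and 11.26. For Amn they were 10.97 and 9.70, and for Osbpl3 9.39 and 8.82. Lamb3, Treh and Pnliprp1 overlapped: in the first 2, null PFOA 3 mg/kg arrays reached 13.46 and 13.05. In Pnliprp1 the lowest wild-type PFOA 1 mg/kg array read 7.18 and the highest other array 8.39.

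In null livers, where the tests apply, no member was called. The limma fit shares 1 estimate of the spread over all 10 groups. The scatter of wild-type PFOA 1 mg/kg, with the array labelled replicate 3, therefore enters the null tests. For Amn the SD was 1.94 in that group and 0.40 to 0.70 in the null groups. The limma fit called 0 of 8 higher or lower at PFOA 3 mg/kg, with 2 at an unadjusted p under 0.05, where 0.261% of all probes were called higher and 0.0395% lower. At PFOA 1 mg/kg it called 0 of 8 (1 unadjusted; 0.0119% of probes higher, 0% lower), and with Wy14,643 0 of 8 (1 unadjusted; 0% of probes either way). The 3 against 1 mg/kg comparison called 0 of 8 (1 unadjusted; 0.00791% of probes), methylcellulose against water 0 of 8 (0 unadjusted; 0% of probes), and the PFOA 3 mg/kg response against the Wy14,643 response 0 of 8 (0 unadjusted; 0.0474% of probes). Those shares of probes are of calls at an adjusted p. At an unadjusted limma p under 0.05, 2111, 1003, 691, 1155, 2931 and 1304 of the 25295 probes passed, in the order above. Median null differences over the 8 genes were 0.67 at PFOA 3 mg/kg, 0.10 at 1 mg/kg and 0.24 with Wy14,643, beside −0.03, −0.01 and 0.02 over all probes.

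Treh came closest. Its null arrays read 11.36, 11.59, 11.33 and 11.42 on water and 12.72, 12.93, 13.05 and 12.66 at PFOA 3 mg/kg, with no overlap. They read 11.94, 11.05, 12.30 and 11.57 at 1 mg/kg, on both sides of the water range. The 3 mg/kg difference was 1.41 ± 0.34 (SE; 2.66-fold, 95% interval 0.72 to 2.10), higher on 4 of 4 arrays, with a limma p of 0.000223 and an adjusted p of 0.0679. The adjusted p was 0.0452 when only brighter probes were tested, 0.0330 with a trended, robust variance and 0.0402 with the 2 groups alone, each of which makes the call, and 0.113 to 0.204 when 1 array was left out. Against 1 mg/kg it was 1.12 ± 0.34 (limma adjusted p = 0.666). With Wy14,643 the null arrays read 11.12, 11.69, 12.31 and 11.87 against 11.28, 10.28, 11.46 and 10.62 on methylcellulose, a difference of 0.84 ± 0.34 (limma adjusted p = 1.00) with overlap.

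Amn was the second. Null arrays read 6.55, 7.18, 7.60 and 7.71 on water, 9.70, 9.37, 8.16 and 8.61 at PFOA 1 mg/kg and 9.06, 9.52, 8.19 and 8.69 at 3 mg/kg. All 8 PFOA arrays lay above all 4 water arrays. The differences were 1.70 ± 0.60 (95% interval 0.49 to 2.92; limma adjusted p = 1.00) and 1.61 ± 0.60 (0.39 to 2.82; adjusted p = 0.429), so neither passed. Undosed null livers on methylcellulose read 8.05, 7.82, 8.21 and 8.77, also above all water arrays and 0.96 ± 0.60 higher (limma adjusted p = 0.529). With Wy14,643 they read 9.01, 7.97, 8.94 and 9.09.

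**Figure D4:**
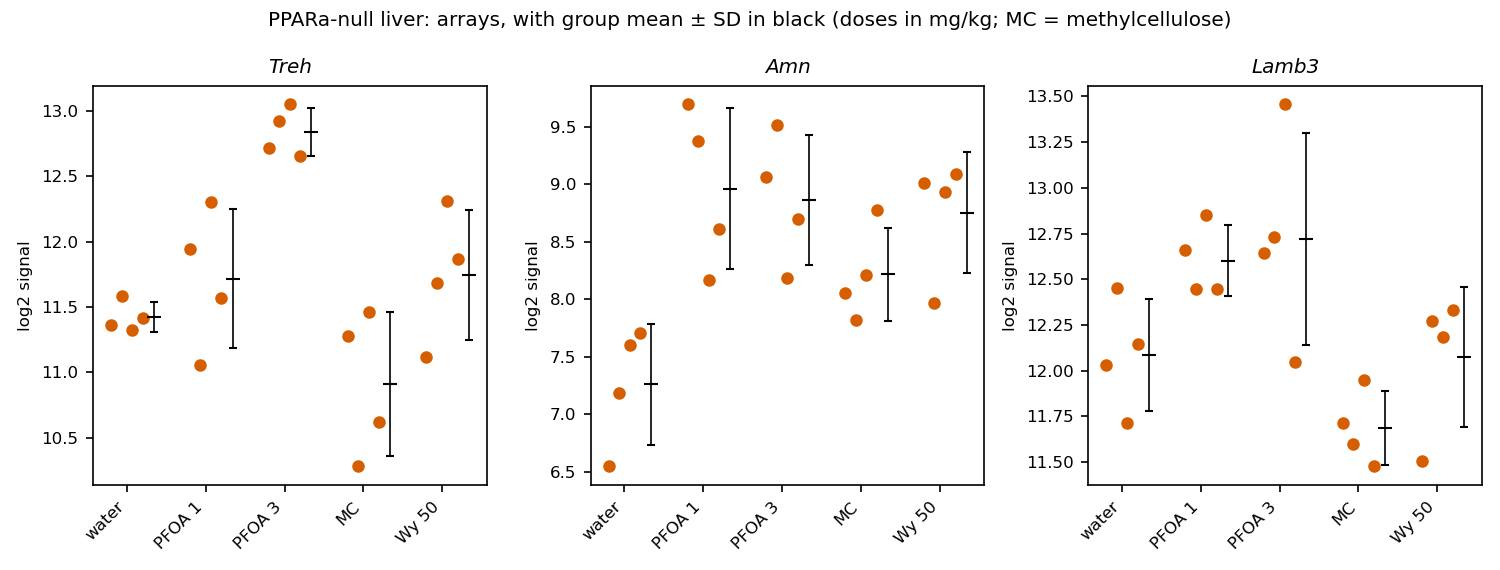
The log2 signal (vertical axis) of Treh, Amn and Lamb3 on each PPARa-null array of the 5 null groups (horizontal axis, doses in mg/kg), with the group mean ± SD in black. Treh stands at 12.66 to 13.05 at PFOA 3 mg/kg, above the 11.33 to 11.59 of water, and Amn is above water in every other group.

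The other members gave wider or smaller null estimates. At PFOA 3 mg/kg Krt23 was 1.05 ± 0.72 (limma adjusted p = 0.756), Osbpl3 0.70 ± 0.62 (0.833) and Lamb3 0.63 ± 0.32 (0.609). Pnliprp1 was 0.12 ± 0.59, Ston1 0.10 ± 1.14 and Hes7 0.09 ± 0.66. The 95% interval for Ston1 ran from −2.23 to 2.43 and that for Hes7 from −1.24 to 1.43. A null difference within those limits was not detectable by this fit. The shared spread includes wild-type PFOA 1 mg/kg, where the SD was 3.68 for Ston1 and 1.99 for Hes7. In the null groups it was 0.38 to 1.47 and 0.45 to 1.23. At 1 mg/kg the 7 members other than Amn lay between −0.43 and 0.52, and with Wy14,643 the 7 other than Treh between −0.45 and 0.53.

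The members were set beside 9 lists of genes from their pathways. The lists were chosen with earlier results of these data known, so the counts describe them. Of 16 measured PPARa target genes of fatty acid metabolism, 12 rose at PFOA 3 mg/kg in wild type, 5 at 1 mg/kg and 8 with Wy14,643. None fell, and the median differences were 2.57, 1.51 and 1.47. Over all probes 3.37%, 0.241% and 2.8% were called higher, and 0.261% at PFOA 3 mg/kg in null livers. The thioesterase Acot1 rose by 6.19 ± 0.51 (limma adjusted p = 5.1e-09), the fatty acid transporter Cd36 by 4.36 ± 0.39 (1.1e-08) and Ehhadh by 4.47 ± 0.52 (1.0e-06) at 3 mg/kg. In null livers 2 of the 16 rose at PFOA 3 mg/kg, Creb3l3, a transcription factor of fasting liver, by 1.06 ± 0.19 (limma adjusted p = 0.00371) and the mitochondrial dehydrogenase Acadl by 1.32 ± 0.26 (0.00944), and 0 rose or fell in the other 2 null comparisons. Counted over all 9 lists, 5 genes passed at PFOA 1 mg/kg in wild type, 10 passed without the array labelled replicate 3, 3 without any one of 5 other arrays, and 0 with the 2 groups fitted alone. With the groups fitted alone the counts were also lower with Wy14,643 in wild type (15 to 3) and at PFOA 3 mg/kg in null livers (2 to 0).

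Over the 8 lists of the members' own families, 3 of 69 measured genes passed at PFOA 3 mg/kg in wild type (4.35%, beside 5.82% of all probes), 0 at 1 mg/kg (0.273% of all probes) and 7 with Wy14,643 (10.1%, beside 6.1%), limma throughout. Of 13 measured laminin and hemidesmosome genes, the partners of Lamb3, 0 passed in any of the 6 treated comparisons (limma), and likewise 0 of 15 stonin and AP-2 genes and 0 of 3 genes of the cubilin complex and B12 uptake. Among 5 simple-epithelium keratins Krt8 rose by 0.84 ± 0.22 at PFOA 3 mg/kg (limma adjusted p = 0.0205) and by 0.98 ± 0.24 with Wy14,643 (0.0117), and its filament partner Krt18 rose by 0.72 ± 0.21 with Wy14,643 (0.0388). In 16 Hes, Hey and Notch genes only the ligand Dll1 passed, and it fell by 1.33 ± 0.31 with Wy14,643 (limma adjusted p = 0.00903). Hes1 was 0.25 ± 0.30 at PFOA 3 mg/kg (limma adjusted p = 0.721).

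Of 9 oxysterol-binding relatives and their anchors, Osbpl5 fell by 1.14 ± 0.31 and Osbpl9 by 0.57 ± 0.16 with Wy14,643 (limma adjusted p = 0.0222 and 0.0344). Among 4 brush border hydrolases, the class of Treh, the aminopeptidase Enpep rose by 0.77 ± 0.16 at PFOA 3 mg/kg and 0.66 ± 0.17 with Wy14,643 (limma adjusted p = 0.00180 and 0.0153). Among 4 lipases of the pancreatic family Pla1a fell by 1.44 ± 0.26 and fell by 1.25 ± 0.29 in the same comparisons (limma adjusted p = 0.000631 and 0.00712). In null livers 0 of the 69 passed in the 3 treated comparisons (limma), where 0.3%, 0.0119% and 0% of all probes did (PFOA 3 and 1 mg/kg, Wy14,643); no difference between genotypes was tested.

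Markers of other cells were read because several members are known from gut, kidney, pancreas or bile duct. Over all probes 5.82% passed at PFOA 3 mg/kg in wild type, 6.1% with Wy14,643 and fewer in the other treated comparisons. At such shares a count of 0 among few genes is not read as a result. None of 5 cholangiocyte, 10 acinar and 6 proximal tubule markers passed in any of the 6 treated comparisons (limma). A summed level is the log2 of the summed signals of a list, in which the brightest markers weigh most. For these markers, in that order, it ran over 11.48 to 11.96, 13.49 to 15.96 and 10.7 to 11.4 on wild-type water. At PFOA 3 mg/kg in wild type it ran over 11.53 to 11.84, 13.1 to 15.7 and 9.75 to 11.8. Of 7 enterocyte markers, 1 passed: Fabp2, an intestinal fatty acid-binding protein, rose by 1.64 ± 0.22 at PFOA 3 mg/kg and by 1.85 ± 0.24 with Wy14,643 (limma adjusted p = 1.0e-05 and 8.1e-06). The summed enterocyte level was 15.7 to 16.2 on water, 17.4 to 17.5 at PFOA 3 mg/kg, 15.7 to 16.3 on methylcellulose and 17.2 to 18.2 with Wy14,643. The median over the 7 was −0.29 at PFOA 3 mg/kg and 0.16 with Wy14,643. No marker stands at 0, since the lowest value in the table is 4.85.

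Some markers of liver's own cells passed in the same wild-type groups. Over all probes, 3.37% were called higher and 2.46% lower at PFOA 3 mg/kg there, and 2.8% and 3.3% with Wy14,643. In null livers at PFOA 3 mg/kg the shares were 0.261% and 0.0395%. The 8 hepatocyte markers were bright on all arrays, with summed levels of 23 to 23.56, and 2 fell at PFOA 3 mg/kg (Ahsg, Fgb) and 2 with Wy14,643 (Ahsg, Trf). Of 8 Kupffer cell markers, 1 fell at PFOA 3 mg/kg (Vsig4) and 5 with Wy14,643, among them Clec4f, Cd163, Vsig4 and C1qa; the summed level was 16.71 to 16.85 on methylcellulose and 15.8 to 16.2 with Wy14,643. Of 10 endothelial markers, 2 fell (Kdr, Stab2) and 1 rose (Lyve1) at PFOA 3 mg/kg, and 4 fell with Wy14,643. Of 8 stellate markers, 1 fell at PFOA 3 mg/kg (Dcn) and 1 with Wy14,643 (Ecm1), and in null livers Col1a1 rose by 3.10 ± 0.38 at PFOA 3 mg/kg (limma adjusted p = 1.5e-05). The part of any of these in the members' values was not tested.

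Which genes ran most like each member was read from Pearson's r over the 39 arrays, as a description: the arrays share groups, so a common treatment pattern alone gives a high r. Ehhadh was among the 3 nearest genes for Krt23 (0.954), Hes7 (0.949), Ston1 (0.941), Amn (0.927) and Osbpl3 (0.913). Ctse, a cathepsin, was near Krt23 (0.946), Hes7 (0.937) and Osbpl3 (0.900), and Cd36 near Amn (0.928) and Osbpl3 (0.915). The others of the 3 were Cyp4a31 for Krt23 (0.938), Mogat1 for Hes7 (0.955), Ephx2 (0.940) and Hadhb (0.937) for Ston1 and Slc39a5 for Amn (0.922).

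The remaining members had other neighbours and lower values. Lamb3 ran nearest to Pafah2 (0.872), Ggct (0.856) and Gyg (0.852). Treh ran nearest to Spryd7 (0.878), the thioesterase Acot1 (0.875) and Hprt (0.871), and Pnliprp1 to Abcg2 (0.832), Cbfa2t3 (0.829) and Aptx (0.826). Among the members, the 28 pairs gave r of 0.625 to 0.933 over 39 arrays (median 0.808). Once each group's mean was removed and the array labelled replicate 3 left out, r over 38 arrays was −0.15 to 0.52 (median 0.15).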

How the data were processed

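Liver RNA of 39 mice was read on 1-colour arrays. The authors deposited log2 signals whose quantiles are the same on each array, as the values themselves show. They span 4.85 to 21.5, from which the base of the logarithm is taken as 2. Image reading, background handling and the origin of the 1.15% missing values are steps not given in the sources used here. Of 33012 probes, the platform annotation names 1 gene for 14411, several for 247 and none for 18354.

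The 25295 probes with a value on every array entered a limma fit (version 3.58.1, R 4.3.3), 1 mean per group (29 residual and 2.51 prior degrees of freedom), two-sided, with Benjamini-Hochberg adjustment over all of them and a threshold of 0.05. Upstream sequences came from RefSeq promoters of GRCm38.p6. The script was tested on simulated data. The members and lists were chosen with earlier results of these data known. Named genes are the members, the 3 genes nearest to each by Pearson's r, up to 4 genes called per list and comparison, Ppara, and Cox6b2, Ehhadh and Cyp4a14 as array checks; Hes1 was added as the best-known relative of Hes7. The number of arrays limits the precision. Alternatives were leaving out each array of the groups compared, a replicate block, array set, silent-gene signal, other filters, variance models and a second normalization.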

Additional observations from a re-analysis of the deposited data

Results flagged for a closer look

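In groups of 4 arrays, a sample was listed where its gap to the nearest other array exceeded 0.829 of the group's range (Dixon's 95% limit). This happened in 9 of 81 sets, each of 1 probe in 1 group, and chance gives about 5% of independent sets. Probes share the arrays, so these sets are not independent and 9 is not weighed against that rate. 3 of the 9 are replicate 3 of wild type at PFOA 1 mg/kg: Krt23 at 10.95 (nearest 15.16), Hes7 at 11.63 (nearest 15.35) and Amn at 7.39 (nearest 10.97).

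In the same group Pnliprp1 stood high in replicate 1, at 10.37, where the nearest array read 7.49. Osbpl3 was low in wild-type Wy14,643 replicate 4, at 9.39 (nearest 11.24). In null livers Ston1 was high in water replicate 4, at 9.05 (nearest 7.71), and Osbpl3 was high in PFOA 3 mg/kg replicate 4, at 8.82 (nearest 7.76). Osbpl3 was low in methylcellulose replicate 2, at 6.13 (nearest 7.67), and Amn was low in Wy14,643 replicate 2, at 7.97 (nearest 8.94). No cause was tested for any of these.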

How the results depend on the processing

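The count of members called at PFOA 3 mg/kg in null livers was 0, and 0 to 0 with each array of the 2 compared groups left out. The array labelled replicate 3 is in neither group and stayed in those fits, while the fit of the 2 groups alone is without it. The count became 1, Treh, with the replicate block (limma adjusted p 0.0477), with brighter probes only, with a trended, robust variance and with the 2 groups alone. It stayed 0 with array set (Treh 0.0642), silent-gene signal (0.0642), missing values kept (0.0914) and a second normalization (0.0674). The other 5 null counts stayed at 0 under every alternative. The replicate numbers did not pair the arrays: over 23 pairs the correlation of deviations ran from −0.26 to 0.21, and 10 exceeded 0.1. The array sets nevertheless run largely with these numbers.

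List genes called over the 9 lists numbered 5 at PFOA 1 mg/kg in wild type, 3 with silent-gene signal and 0 with the 2 groups alone. With 1 array left out they numbered 3 to 10: 10 without PFOA replicate 3, and 3 without PFOA replicates 1, 2 or 4 or water replicates 2 or 3. With Wy14,643 in wild type they numbered 15, 3 with the 2 groups alone and 6 to 18 with 1 array left out (9, 6 and 8 without methylcellulose replicates 2 and 3 and Wy14,643 replicate 3). At PFOA 3 mg/kg in null livers they numbered 2, 0 with the 2 groups alone and 1 to 3 with 1 array left out (1 without PFOA replicate 4); in wild type 15, and 14 to 16. The cause of these shifts was not tested.

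The other Ston1 probe turned the sign of 3 values: −0.81 and −0.33 for PFOA 3 and 1 mg/kg in wild type, and 1.65 for null minus wild type on methylcellulose, where the probe used gave −0.41. Of 1501 single-gene values under alternatives, 1421 kept their call and size, 73 moved and 4 gained a call. Signs turned in 78 in all: the 3 above, 59 in null comparisons that were uncalled (largest reported size 0.56) and 16 of null minus wild type on a vehicle. With the silent-gene signal Ston1 went from −1.32 to 0.62 for null minus wild type on water, from 0.18 to −1.25 for null methylcellulose minus water and from 0.10 to −0.83 at PFOA 3 mg/kg in null livers.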
